A study of Mus musculus with 8 samples.

Results

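The genes described here switch off or damp signaling through mitogen-activated protein kinases (MAPKs). They are 10 in number and fall into 2 roles. Dusp1, Dusp2, Dusp4 and Dusp5 encode nuclear, inducible dual-specificity phosphatases, whereas Dusp6, Spry1, Spry2, Spry4, Spred1 and Spred2 encode feedback inhibitors of the ERK branch. Their probes were found by gene name in the array annotation. The set and its roles were proposed with earlier results of these data known. Among the 27745 gene names on the array, 9 of the 10 members were found, with 15 probes. No feature is named Dusp5, which was not analysed here. The test took in 14 of these 15 probes, those that stood well above background in 2 or more extracts of one of the genotypes. The exception was the dimmer of the pair of Spry4 probes, which was well above background on 0 arrays.

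RNA was prepared from MEFs (mouse embryonic fibroblasts, cultured from embryos) of genotype Lats2-/- or Lats2+/+. LATS2 is a Hippo pathway kinase that phosphorylates serine and threonine. All cells were of strain C57BL/6J, were kept in DMEM with inactivated fetal bovine serum and antibiotics, and received no treatment. Each of 3 litters (112, 116 and 121) gave 1 clone name per genotype, taken here as 6 extracts. The titles of litter 121 name 2 replicates, each with a dye swap, without saying whether the second is a new extract. The age of the embryos is not given in the sources used here. A litter's pair of extracts was hybridized together on two-color Agilent arrays with balanced dye swaps, on 2 arrays each for litters 112 and 116, which shared a slide, and on 4 for litter 121, which had a slide to itself. Every ratio is log2 of Lats2-/- over Lats2+/+, and n is 3 litters.

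In the MAPK cascade, receptors activate Ras, which activates Raf, MEK and finally ERK. The dual-specificity phosphatases remove the activating phosphates from the threonine and tyrosine of a MAPK. Sprouty and Spred proteins act further up, between receptor and Raf. Many of these genes are themselves transcribed in response to MAPK signaling, which makes a negative feedback loop, and in fibroblasts serum and growth factors are the classical inducers.

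Several measurements of the whole series bear on what follows. In a channel, the share of gene probes clearly above background was 52.9% to 61.3%. Of 12 fibroblast markers, 10 were above background in all 6 extracts, and their summed level lay between 17.92 and 19.25 on the log2 scale. The median ratios of this list in litters 112, 116 and 121 were 0.14, 1.95 and -1.47, so that the extracts of litters 116 and 121 differed in fibroblast transcripts in opposite directions. Among macrophage markers, 1 of 7 was above background in all extracts and Ptprc, Emr1, Itgam and Tyrobp in none; the summed level ran from 9.11 to 11.13 and was highest in the Lats2+/+ extract of litter 116. The same extract had the highest neural sum (11.86, against 9.95 to 10.40 elsewhere; Sox2 and Gfap were above background in no extract) and the lowest skeletal muscle sum (9.47, against 11.96 to 13.38; Acta1 was the detected gene, with Myod1, Myog, Myf5, Des and Actn2 in no extract). The neural sum of that extract rested mostly on Nefl. Tubb3, the only neural marker above background in all extracts, was at its lowest there. Of the endothelial markers 0 of 6, and of the epithelial markers 1 of 8 (Krt5), were above background in all extracts. A pair of markers, named after their values were seen, had 1 sign in every litter with an unadjusted p under 0.05. The epithelial keratin Krt19 had log2 signals of 8.67, 6.40 and 8.77 in Lats2-/- cells and of 6.25, 6.02 and 6.94 in Lats2+/+ cells of litters 112, 116 and 121, with ratios of 2.42, 0.37 and 1.83 (limma unadjusted p of 0.0284, adjusted p of 0.711). In litter 116 its Lats2+/+ extract was not well above background, so the level was at least 1.20-fold higher in Lats2-/- cells there. The monocyte and macrophage gene Cd14 had ratios of -0.60, -1.64 and -0.74 (limma unadjusted p of 0.0192, adjusted p of 0.711). Neither list moved as a whole with its picked marker. Krt14 was slightly lower in every litter and Krt5 slightly higher, while Csf1r and Cd68 changed sign between litters. The median of the mean ratios was 0.036 over the 3 epithelial markers tested and -0.038 over the 3 macrophage markers tested. The part that these marker differences have in the ratios below was not tested. The upstream Lats2 probe gave ratios of -1.33, -1.05 and -0.56 in litters 112, 116 and 121, and the other 3 Lats2 probes gave 0.80 to 1.17 in litter 121, against the genotype labels.

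Across all 22642 probes tested, 0 passed a Benjamini-Hochberg adjusted p of 0.05 in limma (smallest adjusted p 0.634), against 1549 at an unadjusted p under 0.05 by limma and 1348 by the methods' t-test. Each member is therefore given with its values, its unadjusted p and its adjusted p. Because the RNA is from bulk cultures, fewer cells of a type and less RNA per cell cannot be told apart.

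Of the 3 nuclear phosphatases measured, Dusp1 and Dusp4 were higher in Lats2-/- cells in every litter, and of the 6 ERK feedback inhibitors Spry1 was. By the brightest probe of each gene this is 3 of 9 members (33.3%) against 15.9% of the 14791 genes tested. Lower in all 3 litters were 0 of 9 members, against 14.1% of all genes. The same 3 genes had an unadjusted limma p under 0.05, against 7.59% of all genes. Only Dusp4 was also at least 2-fold higher, 1 of 9 members, against 0.838% of all genes. For 0 of the 9 genes did the signals of the 3 Lats2-/- and the 3 Lats2+/+ extracts separate fully by this probe, against 6.24% of all genes. Adjusted p-values of the 9 genes ran from 0.634 to 0.984 in limma.

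Upstream sequences are shown for the pair of genes beside Dusp4 that were higher in every litter, Dusp1 and Spry1, 1 from each role. They are the 250 bases before the RefSeq start of each gene in build GRCm38.p6, 5′ to 3′ on the gene's strand (chr17:26508473-26508722, minus, for Dusp1, and chr3:37639697-37639946, plus, for Spry1), with motif matches in capitals.
Dusp1: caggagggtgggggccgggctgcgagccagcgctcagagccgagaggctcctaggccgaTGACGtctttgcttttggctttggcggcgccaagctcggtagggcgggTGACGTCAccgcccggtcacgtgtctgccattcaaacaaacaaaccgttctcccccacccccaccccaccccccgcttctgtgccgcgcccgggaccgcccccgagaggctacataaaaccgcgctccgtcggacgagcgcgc
Spry1: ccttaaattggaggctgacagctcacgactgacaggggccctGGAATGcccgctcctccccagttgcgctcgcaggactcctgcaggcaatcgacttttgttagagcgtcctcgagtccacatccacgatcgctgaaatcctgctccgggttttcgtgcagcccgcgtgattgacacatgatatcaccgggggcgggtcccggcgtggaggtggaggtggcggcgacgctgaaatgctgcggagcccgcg

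Windows for 8 of the 10 members were matched by symbol in the RefSeq table, and Dusp4 and Spry4 have no entry there. Both strands were searched for 7 motifs. These were the cAMP response element (CRE) TGACGTCA, its core TGACG, which is contained in the full element, the AP-1 site TGANTCA, the ETS site CCGGAA, the TEAD site GGAATG, the TATA box TATAAA and the CArG box, to which serum response factor binds. The Dusp1 window holds a full CRE 143 to 136 bases before the start, and 1.55% of all 32851 windows hold one. It has a further core 191 to 187 bases before the start, a motif present in 17.8% of windows. The Spry1 window holds a TEAD site 208 to 203 bases before the start, as 12.6% of windows do. Spred2 has a CRE core, and Dusp5, which was not measured, has a core and 2 CArG boxes, a motif of 1.47% of windows. None of the 7 motifs was found in the windows of Dusp2, Dusp6, Spry2 and Spred1. These matches are a description of the letters in these windows.

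**Figure D1:**
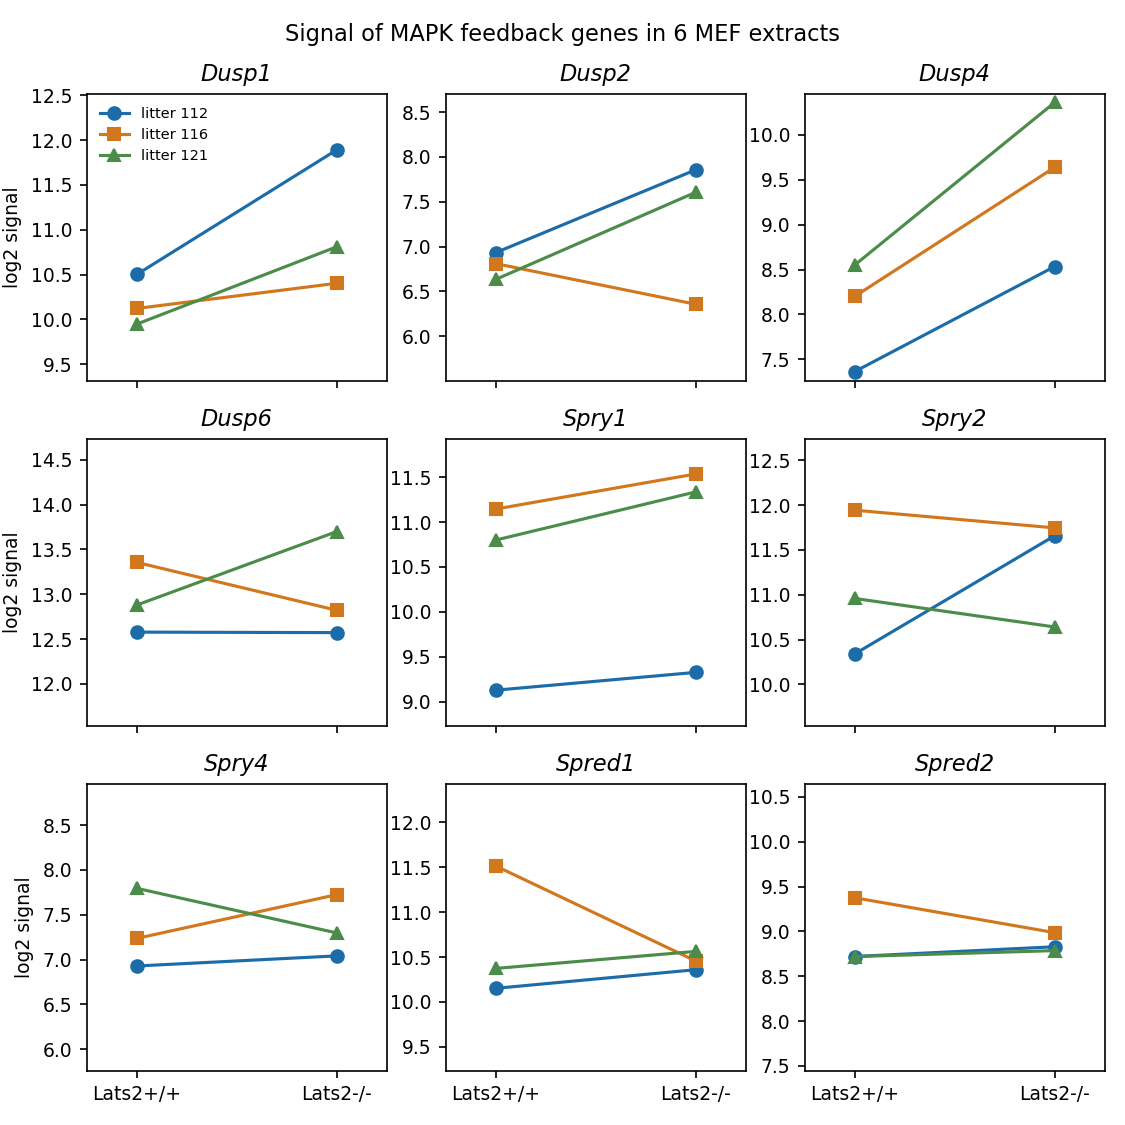
Log2 signal (y axis, after normalization within and between arrays, with the same span in every panel) of the brightest probe of 9 MAPK feedback genes in the Lats2+/+ and Lats2-/- extract of each litter (1 line per litter). All 3 lines go up for Dusp1, Dusp4 and Spry1, whereas the lines of the other 6 genes run in different directions.

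Among the nuclear phosphatases, Dusp4, which acts on ERK, JNK and p38, had the largest mean ratio. Its brighter probe (A_51_P347333, chromosome 8, 36290269 to 36290328 in mm8, the build of the array annotation, plus strand) had log2 signals of 8.53, 9.64 and 10.36 in the Lats2-/- cells of litters 112, 116 and 121, and of 7.36, 8.20 and 8.55 in the Lats2+/+ extracts. Each Lats2-/- extract was above its littermate. The groups overlapped narrowly, because litter 112 was low in both genotypes. The ratios were 1.17, 1.44 and 1.81, averaging 1.48 ± 0.32 (SD, n = 3 litters), or 2.78-fold higher. The unadjusted p was 0.00104 and the adjusted p 0.634 in limma, with a 95% confidence interval of 1.01 to 1.94, and the ratio was above 0 on 8 of 8 arrays.

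The second Dusp4 probe (A_51_P518051, 36287508 to 36287567) gave signals of 8.13, 8.72 and 8.97 in Lats2-/- extracts and of 7.03, 7.33 and 7.44 in Lats2+/+ extracts. By this probe the lowest Lats2-/- extract exceeded the highest Lats2+/+ extract. The ratios were 1.09, 1.39 and 1.53, averaging 1.34 ± 0.23 (SD, n = 3 litters; limma unadjusted p of 0.00068, adjusted p of 0.634). Both probes thus placed the litters in the same order, and they differed by at most 0.28 in any litter. Among all genes tested, the mean ratio of Dusp4 was at percentile 99.3, and it was at 97.8, 97.1 and 98.5 within litters 112, 116 and 121.

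Dusp1, the immediate early phosphatase that acts chiefly on p38 and JNK, was measured by 1 probe (A_51_P430900, chromosome 17, 26233451 to 26233508, minus strand). Its log2 signals were 11.89, 10.40 and 10.81 in the Lats2-/- cells of litters 112, 116 and 121, and 10.50, 10.12 and 9.95 in the Lats2+/+ extracts. Litter 112 was highest in both genotypes, and the Lats2-/- extract of litter 116 lay below the Lats2+/+ extract of litter 112, so that the groups overlapped. The ratios were 1.39, 0.28 and 0.86, and their mean was 0.84 ± 0.55 (SD, n = 3 litters), 1.80-fold higher. The unadjusted limma p was 0.0298 and the adjusted p 0.711, with a 95% confidence interval of 0.14 to 1.55.

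The size of the Dusp1 ratio moved with the dye, being larger on arrays with Lats2-/- in Cy5 than on those with Lats2-/- in Cy3, by 0.41, 0.46 and 0.43 in litters 112, 116 and 121. In litter 116 it was 0.51 in that orientation and 0.05 in the other, and it was above 0 on 8 of 8 arrays over all litters. The unadjusted limma p was 0.0894 without litter 112 and 0.0951 without litter 121.

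Dusp2, a nuclear phosphatase best known from activated immune cells, was dim (A_52_P399934, chromosome 2, 127029635 to 127029694, plus strand). Its log2 signals were 7.86, 6.36 and 7.61 in Lats2-/- extracts and 6.93, 6.81 and 6.63 in Lats2+/+ extracts of litters 112, 116 and 121. The Lats2-/- extracts of litters 112 and 121 were the highest of the 6 and that of litter 116 was the lowest, not well above background on either of its arrays. The ratios were 0.92, -0.45 and 0.97, averaging 0.48 ± 0.81 (SD, n = 3 litters; limma unadjusted p of 0.245, adjusted p of 0.793). The mean was 0.26 without litter 112 and 0.24 without litter 121 (limma unadjusted p of 0.605 and 0.614), and 0.95 without litter 116, the litter of opposite sign (limma unadjusted p of 0.00569, adjusted p of 0.834). In litter 116 the level was at least 1.37-fold lower in Lats2-/- cells, a bound set by the probe's own signal there. The mean of 0.48 and its SD rest on that bound.

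**Figure D2:**
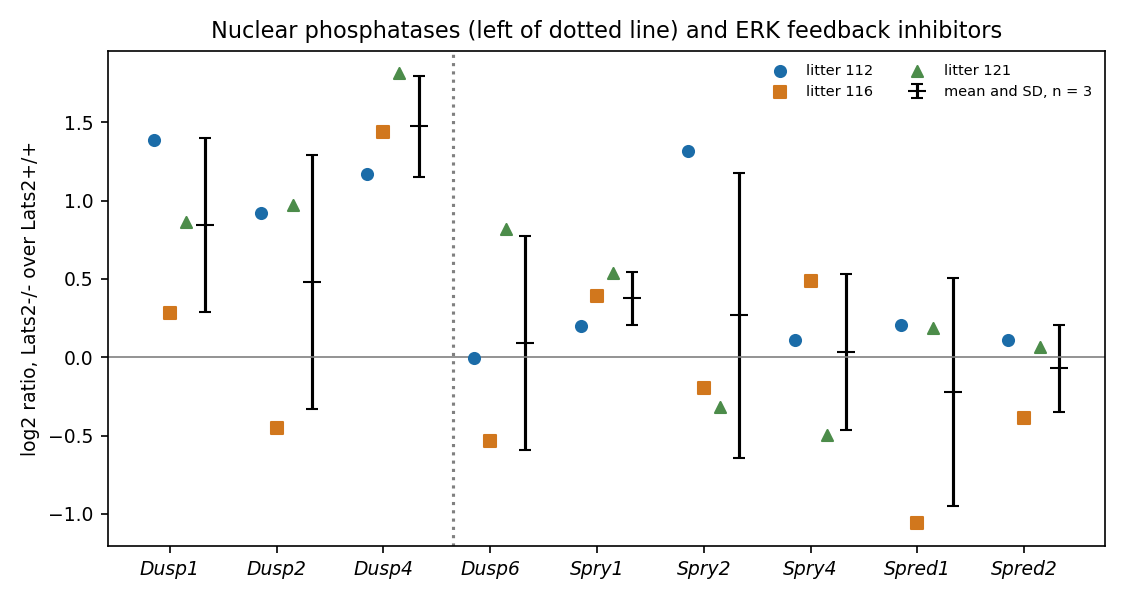
Log2 ratio of Lats2-/- over Lats2+/+ (y axis) in each litter (colored points) for the brightest probe of each gene, with the mean and SD over 3 litters in black. Dusp4 is above 1 in every litter, Spry1 has the smallest spread (SD 0.17), and the SDs of Dusp2, Dusp6, Spry2, Spry4, Spred1 and Spred2 cross 0.

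The ERK feedback inhibitors showed no common direction. Dusp6, a cytoplasmic phosphatase selective for ERK and a standard readout of ERK activity, was bright in all extracts (A_51_P502614, chromosome 10, 98697039 to 98697098, plus strand). Its log2 signals were 12.57, 12.82 and 13.70 in Lats2-/- extracts and 12.58, 13.36 and 12.88 in Lats2+/+ extracts of litters 112, 116 and 121. The genotypes were level in litter 112, lower in Lats2-/- cells in litter 116 and higher in litter 121. The ratios were accordingly -0.0057, -0.53 and 0.82, averaging 0.09 ± 0.68 (SD, n = 3 litters; limma unadjusted p of 0.772, adjusted p of 0.959). The 95% confidence interval, -0.75 to 0.94, includes changes of either sign. Without litter 121 the mean was -0.27.

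Spry1, a Sprouty inhibitor of receptor tyrosine kinase signaling, was the only feedback inhibitor whose brightest probe had 1 sign in all 3 litters (A_51_P490136, chromosome 3, 37835821 to 37835880, plus strand). Its log2 signals were 9.33, 11.54 and 11.34 in Lats2-/- extracts and 9.13, 11.15 and 10.80 in Lats2+/+ extracts of litters 112, 116 and 121. Both extracts of litter 112 were far below the other 4, and the litter means spanned 2.12. Within each litter the Lats2-/- extract was a little higher. The ratios were 0.20, 0.39 and 0.54, averaging 0.38 ± 0.17 (SD, n = 3 litters), 1.30-fold higher, on 8 of 8 arrays. In litter 112 the ratio was 0.32 with Lats2-/- in Cy5 and 0.08 with Lats2-/- in Cy3. The limma unadjusted p was 0.0355 and the adjusted p 0.711, with a 95% confidence interval of 0.04 to 0.71. When any 1 litter was left out, the unadjusted p lay between 0.0574 and 0.154, and it was 0.0999 with the processed signals of Feature Extraction.

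Spry2, a Sprouty family member that also binds the ubiquitin ligase Cbl, was higher in litter 112 alone. Its brighter probe (A_52_P368532, chromosome 14, 104777767 to 104777826, minus strand) had log2 signals of 11.66, 11.74 and 10.64 in Lats2-/- extracts and of 10.34, 11.94 and 10.96 in Lats2+/+ extracts of litters 112, 116 and 121. The lowest signal of all was the Lats2+/+ extract of litter 112. The ratios were 1.32, -0.20 and -0.32, and the mean of 0.27 ± 0.91 (SD, n = 3 litters; limma unadjusted p of 0.534, adjusted p of 0.904) turned to -0.26 without litter 112.

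The other Spry2 probe (A_51_P445153, 104778283 to 104778342) gave 0.49, -0.05 and -0.13, the same signs at smaller sizes. The probes differed by 0.83 in litter 112, the widest gap between kept probes of any member. The size of the Spry2 difference in that litter therefore depended on the probe.

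Spry4, another Sprouty inhibitor, was dim and had no common sign (A_52_P204311, chromosome 18, 38712243 to 38712302, minus strand). Its log2 signals were 7.04, 7.72 and 7.30 in Lats2-/- extracts and 6.93, 7.24 and 7.79 in Lats2+/+ extracts of litters 112, 116 and 121. The ratios were 0.11, 0.49 and -0.50, averaging 0.03 ± 0.50 (SD, n = 3 litters, limma unadjusted p of 0.888, adjusted p of 0.984). They moved with the dye. In litter 112 the ratio was -0.14 with Lats2-/- in Cy5 and 0.37 with Lats2-/- in Cy3, which are opposite signs. In litter 116 these values were 0.33 and 0.65. The sign of this mean changed when litter 112 (-0.0048) or litter 116 (-0.19) was left out.

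Spred1 and Spred2, which bring the Ras inactivator neurofibromin to the membrane, stood out in litter 116 only. The brightest Spred1 probe (A_51_P119857, chromosome 2, 116873555 to 116873614, plus strand) had log2 signals of 10.36, 10.46 and 10.56 in Lats2-/- extracts and of 10.15, 11.52 and 10.37 in Lats2+/+ extracts of litters 112, 116 and 121. Of the 6 extracts, 5 lay between 10.15 and 10.56, and the Lats2+/+ extract of litter 116 was apart at 11.52. The ratios were 0.21, -1.06 and 0.19, averaging -0.22 ± 0.73 (SD, n = 3 litters; limma unadjusted p of 0.527, adjusted p of 0.901). The other 2 Spred1 probes gave -0.85 and -0.69 in litter 116 and between -0.05 and 0.10 in the other litters, and the 3 probes span 10189 bp. Without litter 116 the mean of the brightest probe was 0.20.

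Spred2 was lower in the same litter by a smaller amount. Its brighter probe (A_51_P234185, chromosome 11, 19923715 to 19923774, plus strand) had log2 signals of 8.83, 8.99 and 8.79 in Lats2-/- extracts and of 8.72, 9.38 and 8.72 in Lats2+/+ extracts of litters 112, 116 and 121. Again the Lats2+/+ extract of litter 116 was the highest. The ratios were 0.11, -0.39 and 0.07, averaging -0.07 ± 0.28 (SD, n = 3 litters; limma unadjusted p of 0.658, adjusted p of 0.938). Its dimmer probe (A_52_P452697, 19922350 to 19922409) gave -0.16, -0.49 and -0.0032, which are all below 0. This Lats2+/+ extract is the one with the highest macrophage and neural marker sums, which rest there mostly on Cd14 and Nefl. It also has the lowest muscle marker sum, read mostly from Acta1. Csf1r, Cd68 and Tubb3 were not highest in it. The part of these markers in the Spred ratios was not tested.

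Set against each other within litters, the nuclear phosphatases had the higher mean ratio in every litter. Over Dusp1, Dusp2 and Dusp4 the means of litters 112, 116 and 121 were 1.16, 0.42 and 1.22, whereas the mean over the 6 feedback inhibitors was 0.32, -0.22 and 0.13. The difference was therefore 0.84, 0.64 and 1.08, averaging 0.85 ± 0.22 (SD, n = 3 litters). The means of litter 116 hold Dusp2, whose ratio there is only a bound (at least 1.37-fold lower), so that 0.42 and 0.64 are upper limits. The average of 0.85 is likewise an upper limit, and its SD rests on that bound. The comparison is a description with no test, since the genes were grouped with earlier results of these data known. The Sprouty genes averaged 0.54, 0.23 and -0.09, and the Spred genes 0.16, -0.72 and 0.13. Litter 116 had the lowest mean of both role groups, and Dusp1 and Dusp2 had their lowest ratios there, while Dusp4 was at 1.44. The median over genes of the mean ratio was 0.84 for the nuclear phosphatases and 0.06 for the feedback inhibitors, against 0.01 for all 14791 genes.

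**Figure D3:**
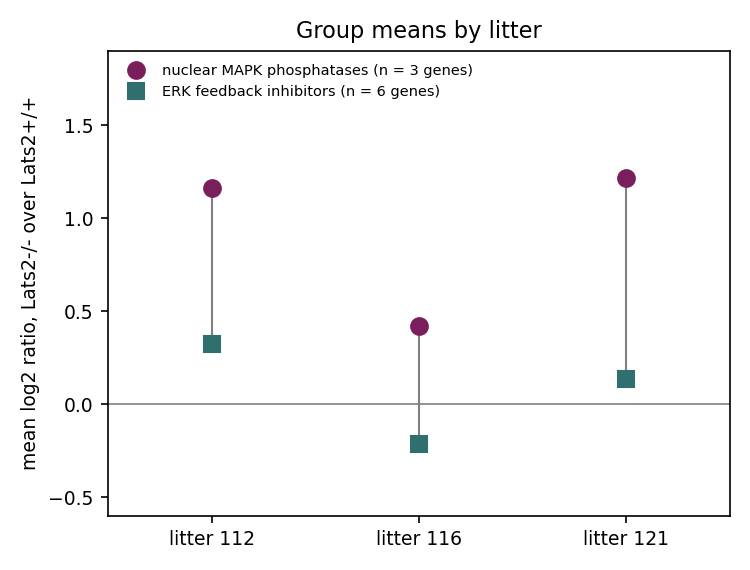
Mean log2 ratio of Lats2-/- over Lats2+/+ (y axis) over the 3 nuclear phosphatases (circles) and the 6 ERK feedback inhibitors (squares) in each litter, joined by a line. The circle lies above the square in each litter, by 0.84, 0.64 and 1.08, and both means are lowest in litter 116, where the circle and the gap are upper limits because Dusp2 was not well above background in Lats2-/- cells.

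Changes of at least 2-fold in a single litter were spread over both roles. In litter 112, Dusp1, Dusp4 and Spry2 were at least 2-fold higher in Lats2-/- cells, 3 of 9 members, against 3.15% of all genes in that litter. In litter 116 Dusp4 was at least 2-fold higher and Spred1 at least 2-fold lower, where 5.55% and 3.68% of all genes were. In litter 121 only Dusp4 was, against 4.04% of all genes. The litters also differed in level regardless of genotype: for all 9 genes the span of the litter means of the log2 signal exceeded the size of the mean ratio. This span ran from 0.43 for Spred2 to 2.12 for Spry1. For Dusp1, Dusp2, Dusp4, Dusp6, Spry2 and Spred1, however, the widest ratio of a single litter exceeded the span. The share of all genes with such a span was not computed. Litter 121 has a slide of its own, so its level and its slide cannot be told apart.

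The rest of the pathway was read from 3 lists, in which 0 genes passed the adjusted threshold in limma. Of the other phosphatases and negative regulators, 11 of 12 genes were tested, and 2 were higher and 1 lower at an unadjusted p under 0.05, a limit that 7.59% of all genes met. Il17rd, a membrane protein that restrains FGF and ERK signaling, had ratios of 0.79, 2.02 and 1.08 in litters 112, 116 and 121 (mean 1.30 ± 0.64, SD, n = 3 litters; limma unadjusted p of 0.0114, adjusted p of 0.711). Errfi1, a feedback inhibitor of the EGF receptor, had ratios of 1.75, 1.10 and 0.38 (mean 1.08 ± 0.69; limma unadjusted p of 0.0251). Dusp7, a cytoplasmic ERK phosphatase of the same subfamily as Dusp6, had ratios of -1.28, -0.12 and -0.96 (mean -0.79 ± 0.60; limma unadjusted p of 0.0447). The median of this list was -0.05.

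Of the cascade itself, from receptors to kinases, 35 of 36 genes were tested, with 3 higher and 1 lower at an unadjusted p under 0.05 (7.59% of all genes) and a median of 0.12. Mapk3, which encodes ERK1, had a mean ratio of 0.54 ± 0.24 (SD, n = 3 litters). The JNK activator Map2k7 had a mean of 0.36 ± 0.12 and the nuclear kinase Rps6ka5 (MSK1) one of 0.39 ± 0.18. Map2k3, a kinase that activates p38, had a mean of -0.46 ± 0.18. The unadjusted p-values of these 4 genes ran from 0.0189 to 0.0357 in limma. The widest ratios belonged to receptors and did not share a sign across litters, with 0.90, 0.13 and -4.96 for Pdgfra and -0.72, 2.75 and 0.97 for Egfr. Pdgfra is itself one of the fibroblast markers, a list whose median ratios were 0.14, 1.95 and -1.47.

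Of the transcripts that respond to ERK, 25 of the 26 on the array were tested, with 6 higher and 1 lower at an unadjusted p under 0.05, against 7.59% of all genes in either direction. The list was balanced otherwise, with 13 means above 0 and 12 below, 6 genes higher and 6 lower in all 3 litters, and a median of 0.02. The widest mean ratios were those of Fos and Egr1. Fos had 5.43, 2.19 and 1.24 in litters 112, 116 and 121 (mean 2.95 ± 2.20, SD, n = 3 litters; limma unadjusted p of 0.0349), and Egr1 had 4.39, 2.93 and 0.81 (mean 2.71 ± 1.80; limma unadjusted p of 0.0250). Both are transcription factor genes that serum induces within minutes. Junb, a partner of Fos in AP-1, varied less, with 2.48, 2.17 and 1.57 (mean 2.08 ± 0.46; limma unadjusted p of 0.000792, adjusted p of 0.634).

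Ier2, another immediate early gene, had a mean of 1.54 ± 0.97 (SD, n = 3 litters), and Srf, which encodes serum response factor, one of 0.46 ± 0.27. Epha4, an ephrin receptor, had ratios of 1.11, 1.51 and 1.42 (mean 1.34 ± 0.21; limma unadjusted p of 0.00059, adjusted p of 0.634). Its Lats2+/+ extract of litter 116 was not well above background, so Lats2-/- cells exceeded it by at least 2.84-fold there. The mean and SD rest on that bound. Ccnd1, the cyclin of entry into the cell cycle, had a mean of -0.43 ± 0.16. Other genes of the list, named here after their values were seen, were not higher throughout. Myc had ratios of -0.05, -1.57 and -1.06 and Fosl1 of 0.76, -1.72 and -1.28. Fosb (2.33, -0.03 and -0.0095) and Ier3 (2.33, -0.54 and 0.21) were above 2 on the log2 scale in litter 112 alone. Hmga1, a chromatin protein gene, had -0.49, -1.26 and -3.28 (mean -1.68 ± 1.44; limma unadjusted p of 0.0533). Beside Ccnd1, Myc and Hmga1, the genes below 0 in every litter were Etv4 (-0.20, -0.65 and -1.96), Etv5 (-0.33, -1.06 and -0.10) and Elk3 (-0.45, -1.16 and -0.03). The litter with the widest ratios of Fos and Egr1, litter 112, was also that of the widest Dusp1 ratio, whereas Dusp4 had its lowest ratio there.

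**Figure D4:**
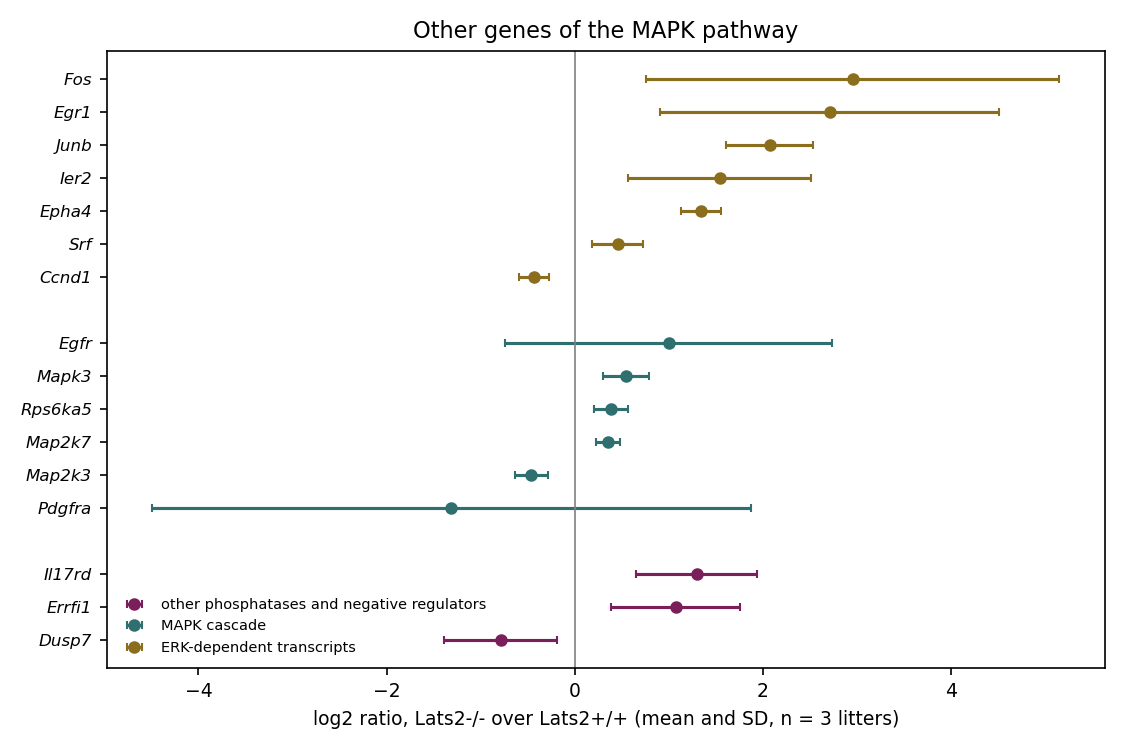
Mean log2 ratio of Lats2-/- over Lats2+/+ (x axis) with its SD over 3 litters for the genes of 3 pathway lists with an unadjusted limma p under 0.05, and the 2 genes of each list with the widest mean. Fos (2.95), Egr1 (2.71) and Junb (2.08) lie farthest to the right, and the bars of Egfr and Pdgfra cross 0.

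The genes most like each role group over the 6 extracts were named from the correlation of centered log2 signals, given without a test. For the mean profile of the nuclear phosphatases these were Ppbp (Pearson r = 0.99), B930095M22Rik (0.98) and Cxcl12 (0.98), and 14 genes exceeded 0.95. Cxcl12, a chemokine, had ratios of 2.18, 0.61 and 1.54 in litters 112, 116 and 121. Because it was picked for its likeness to the group profile, its order of litters is no separate observation. For the mean profile of the feedback inhibitors they were the transcript TC1701160 (0.99), Slc25a14 (0.99) and Scara3 (0.99), and 42 genes exceeded 0.95. The points are 6 extracts paired on shared arrays, and the litters contribute to these values as well as the genotypes.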

How the data were processed

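Total RNA of 3 Lats2-/- and 3 Lats2+/+ MEF extracts was hybridized on 8 two-color arrays in dye-swap pairs. The authors read the scans in Feature Extraction (Agilent). The file headers name its version as 10.7.3.1 and the submitters' processing notes as 10.5.1.1. The deposited scanner files hold mean spot and median background intensity in both channels, processed intensity, the log10 ratio of the processed signals, and quality flags. The deposited value table holds the same log10 ratio turned to Lats2-/- over Lats2+/+ (largest difference 0.005).

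Intensities were background corrected (normexp, offset 50), normalized by loess within arrays and turned to Lats2-/- over Lats2+/+ in limma 3.58.1 (R 4.3.3). Control spots and 860 outlier spots were left out. Repeat spots were averaged, then the arrays of a litter, since they were taken to share both extracts. Probes well above background (on most arrays of an extract) in at least 2 of 3 extracts of either genotype were kept (22642). Signals per extract are log2 values after Aquantile normalization between arrays. The 3 litter ratios were tested against 0 (lmFit, eBayes, two-sided) with Benjamini-Hochberg adjustment over kept probes. A gene was counted by its brightest kept probe. The fit was tested on simulated data. The number of arrays and litters limits precision.

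Members and lists were chosen with earlier results of these data known. Named were every member, the genes of 3 pathway lists with an unadjusted p under 0.05, the 2 widest mean ratios of each list, the 3 genes most like each role group, and the Lats2 probe with the largest fall. The markers Krt19 and Cd14 and, of the ERK-response list, Myc, Fosl1, Fosb, Ier3, Hmga1, Etv4, Etv5 and Elk3 were named after their values were seen. Genotypes were paired within litter and array, as the clone names give it. Alternatives covered the offset, the processed signals, the value table, the centering, the filter, each litter, the pairing, random blocks, a dye term, the methods' t-test (2-fold at p under 0.05) and averaging probes. Promoter windows are from RefSeq.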

Additional observations from a re-analysis of the deposited data

How the results depend on the processing

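With 3 litters, counts over the array depended on the fit, while Dusp1, Dusp2, Dusp4 and Spry1 kept a mean ratio above 0 under every alternative that gave a value. The mean of Dusp4 lay between 1.31 and 1.75, that of Dusp1 between 0.57 and 1.13 and that of Spry1 between 0.30 and 0.46. Past the adjusted threshold were 0 probes in limma, but 341 with arrays as observations and litter as a random block, 717 with slide in that place and 203 when dye was added as a term, fits that count technical arrays. Dusp4 had adjusted p-values of 0.00134, 0.000557 and 0.00227 in those limma fits, and Spry1 had 0.0465 with the slide block. Over all alternatives adjusted p ran from 0.000557 to 1 for Dusp4 and from 0.0465 to 1 for Spry1. Probes at least 2-fold changed at an unadjusted p under 0.05 numbered 189, against 305 with an offset of 16, 546 with processed signals, 545 with the value table, 112 without the replicate block (pairing by litter), 414, 441 and 399 with the litter block, the slide block and the dye term, 71 by the methods' t-test, and 260 to 373 when a litter was left out. Members with an unadjusted p under 0.05 numbered 3, but 2 (Dusp1 and Dusp4) with processed signals, the value table or median centering, 1 (Dusp4) without the replicate pairing, by the methods' t-test, without litter 112 or without litter 121 and 3 (Dusp1, Dusp2 and Dusp4) without litter 116. The mean of the feedback inhibitors was 0.08 and turned to -0.042 without litter 112 (-0.042 to 0.23 over litters). The difference between the groups was 0.85, became 1.08 when probes had to be above background in all 6 extracts, which removes Dusp2, and lay between 0.74 and 0.96 when a litter was left out. Means that changed sign were those of Dusp6 (-0.27 to 0.41 over litters left out, lowest without litter 121), Spred1 (-0.43 to 0.20) and Spred2 (-0.16 to 0.0875), both above 0 without litter 116, Spry2 (-0.26 to 0.56, lowest without litter 112) and Spry4 (-0.0048 without litter 112, -0.19 to 0.30 over litters, -0.10 with the slide block). Apart from what the construction of an alternative shows, the cause was not tested. Dusp2 and Spry4 lie near background, which limits their ratios.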
